A study of Rattus norvegicus with 16 samples.

Results

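The transcripts described here are those of the eukaryotic translation initiation factors, the proteins that bring the ribosome to an mRNA and place it at the start codon, in cultured rat islets of Langerhans. They were chosen by name: every probe set with a single annotated symbol starting with Eif1, Eif2, Eif3, Eif4, Eif5 or Eif6 is a member, which takes in the eIF2 kinases and the eIF4E-binding proteins. This gave 75 probe sets of 31042 that are not array controls, and 49 genes of 14217 with a probe set of their own. The rule uses symbols and no measured value, but the group was picked with earlier results of these data known. Of the 75 probe sets, 72 passed a filter that kept the upper 60% of mean level over all 16 arrays (18625 probe sets), and all 49 genes kept at least 1 probe set. The 3 that did not pass were dim further probe sets of Eif3h, Eif4e and Eif4g3. A further 5 probe sets that name an initiation factor beside another symbol were left out, so that some factors, Eif5 and Eif3e among them, are not analysed here.

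The islets came from male Wistar rats of 180 to 200 g. All were precultured for 1 week at 10 mmol/l glucose in RPMI without serum but with BSA at 5 g/l, and then kept for 18 h with glucose at 2, 5, 10 or 30 mmol/l, with 1000 islets a condition. Each of the 4 concentrations has 4 Affymetrix Rat230_2 arrays. The design text tells of 4 experiments, each with its own islets. The labels number the arrays 1 to 4 without saying that a number is 1 experiment. Each number also matched 1 fluidics run, as inferred from hybridization times. A rat islet is mostly insulin-producing beta cells, mixed with other endocrine cells, and in such whole-islet RNA fewer cells of a type and less RNA per cell cannot be told apart.

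Most mRNAs are translated after the cap at their 5′ end has been bound by eIF4E, which joins the scaffold eIF4G and the helicase eIF4A. The eIF4E-binding proteins compete with eIF4G for eIF4E until the kinase mTORC1 phosphorylates them. In parallel, eIF2 carries the initiator methionyl-tRNA to the small ribosomal subunit and is recharged with GTP by eIF2B. Phosphorylation of eIF2 by its kinases blocks eIF2B, lowers initiation on most mRNAs and favours translation of Atf4, a step known as the integrated stress response. In beta cells, glucose is known to raise protein synthesis, proinsulin synthesis above all. An mRNA array shows neither phosphorylation nor protein synthesis.

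The gene start regions of the members are shown for 3 short motifs, because transcription factors of the stress response (ATF4 with C/EBP), of growth and glucose metabolism (MYC and USF) and of cAMP signalling (CREB) are known to bind them. RefSeq start windows of 250 bases before to 50 after the start (GRCr8) matched 45 of the 49 genes, with 48 windows. On either strand, the composite element TGATGNAA was found in 1 of the 48 windows (2.08%), against 3.98% of 33469 windows of all genes. That window belongs to Eif2s2, the eIF2 beta subunit. The E-box CACGTG was found in 9 of 48 windows (18.8%), those of Eif1b, Eif3a, Eif3b, Eif3f, Eif4e, Eif4g1, Eif4h, Eif5a and Eif5a2, against 6.42% of all windows. The cAMP response element core TGACGT was found in 8 of 48 windows (16.7%), those of Eif2b1, Eif2b3, Eif3a, Eif3d, Eif3k, Eif4a1, Eif4e2 and Eif4ebp3, against 7.94% of all windows. The motifs can overlap one another at their end letters, and a match describes these letters only. The windows of Eif2s2 and Eif4e are of a start inside the RefSeq span of the gene (Eif2s2 chr3:163834846-163855733, Eif4e chr2:229736309-229772628), so their stretches lie within that span. The stretches below carry the composite element of Eif2s2 or the E-box of 4 factors whose signals are given further on, 40 bases each on the gene's own strand, with the match in capitals.
Eif2s2 at chr3:163855583-163855622 (minus strand): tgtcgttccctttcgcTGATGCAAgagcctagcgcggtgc
Eif4e at chr2:229740656-229740695 (plus strand): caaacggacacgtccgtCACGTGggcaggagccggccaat
Eif3f at chr1:172368986-172369025 (plus strand): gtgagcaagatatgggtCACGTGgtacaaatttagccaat
Eif3b at chr12:19334803-19334842 (minus strand): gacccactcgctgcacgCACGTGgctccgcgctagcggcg
Eif5a at chr10:55143405-55143444 (minus strand): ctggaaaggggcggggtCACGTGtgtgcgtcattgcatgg

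Signals are the linear, scaled units of the scanner software, in which every array has the same trimmed mean of 149.999, and a probe set's signal is not compared with that of another. No 2 arrays held identical values, and arrays correlated at 0.927 to 0.965. The ratio of the 3 prime to the 5 prime control probe set of Actb averaged 1.76 ± 0.131, 2.04 ± 0.0835, 2.07 ± 0.136 and 2.04 ± 0.0850 from 2 up to 30 mmol/l (SD, n = 4 each). For 5, 10 and 30 against 2 mmol/l the exact permutation p was 0.0286 each, the smallest that 4 against 4 arrays can give, and 0.0952 after adjustment over 10 comparisons. The same ratio of Gapdh averaged 0.864, 0.825, 0.798 and 0.898 from 2 up to 30 mmol/l, and its exact permutation p was lowest in 30 over 10 mmol/l (0.0857, adjusted 0.214, higher in 4 of 4 replicate numbers). The Gapdh ratio was also higher in 4 of 4 numbers in 30 over 2 mmol/l. It was higher in 0 of 4 in 5 over 2 and in 10 over 2 mmol/l (exact permutation p = 0.2 in the latter, adjusted 0.4). These permutations did not pair arrays by number. The added hybridization controls averaged 9.62, 9.84, 10.1 and 9.89 in log2 signal at 2, 5, 10 and 30 mmol/l, so they were highest at 10 mmol/l. The summed signal of 6 beta cell markers lay between 23940 and 28483 at 2 mmol/l, 28093 and 33999 at 5 mmol/l, 36187 and 47642 at 10 mmol/l, and 35196 and 42197 at 30 mmol/l. All 6, Ins1, Ins2, Iapp, Pdx1, Mafa and Slc2a2, were called between 10 and 2 mmol/l. The sums of alpha and delta cell markers were also higher at 10 than at 2 mmol/l without overlap. The 3 alpha cell markers, nearly all of it Gcg, summed to 10381 to 13936 at 10 mmol/l and 7205 to 9715 at 2 mmol/l. The 2 delta cell markers, nearly all of it Sst, summed to 8245 to 9423 at 10 mmol/l and 5367 to 6308 at 2 mmol/l. In each set 1 marker was called in 10 over 2 mmol/l. The macrophage and leukocyte sum was also higher without overlap (359 to 519 at 10, 265 to 325 at 2 mmol/l). So was the dim Schwann sum (38.9 to 61.0, and 21.3 to 33.4), while PP, acinar, endothelial and stellate sums overlapped. The sum of 3 duct markers, nearly all of it Krt7, lay between 1368 and 1677 at 2 mmol/l, 1509 and 1699 at 5 mmol/l, 1003 and 1138 at 10 mmol/l, and 825 and 875 at 30 mmol/l. The 7 acinar markers summed to 60.0 to 126 over all arrays, and none of them passed the level filter. Fluidics module 1 to 4 matched glucose 2 to 30 mmol/l exactly, so module and glucose cannot be told apart. The part that transcript ends, the hybridization controls and marker sums have in the results below was not tested.

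Of the 72 tested initiation factor probe sets, 36 changed with glucose, and those 36 were most often lowest at 10 mmol/l. In a moderated F-test over the 4 concentrations, with limma and Benjamini-Hochberg adjustment over all 18625 probe sets, 36 of the 72 members passed at an adjusted p under 0.05 (50%), against 41.8% of all probe sets. Of these 36, 17 had their lowest mean at 10 mmol/l (47.2%) and 0 had their highest there. Among all 7785 probe sets called, 19.6% had their lowest and 20.9% their highest mean at 10 mmol/l. By genes, each standing for its brightest probe set, 28 of 49 passed. Brighter probe sets passed more often, and 66 of the 72 member probe sets lay in the upper 40% by mean level. Member counts by gene or by probe set are therefore not like for like with the shares of all probe sets. With only the upper 40% by mean level tested, 39 of 66 member probe sets passed, beside 6917 of all 12417. Of these 28 genes, 4, 4, 13 and 7 were lowest at 2, 5, 10 and 30 mmol/l. The highest mean stood at 2 mmol/l in 10 of them, at 5 mmol/l in 8, at 10 mmol/l in 0 and at 30 mmol/l in 10.

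**Figure D1:**
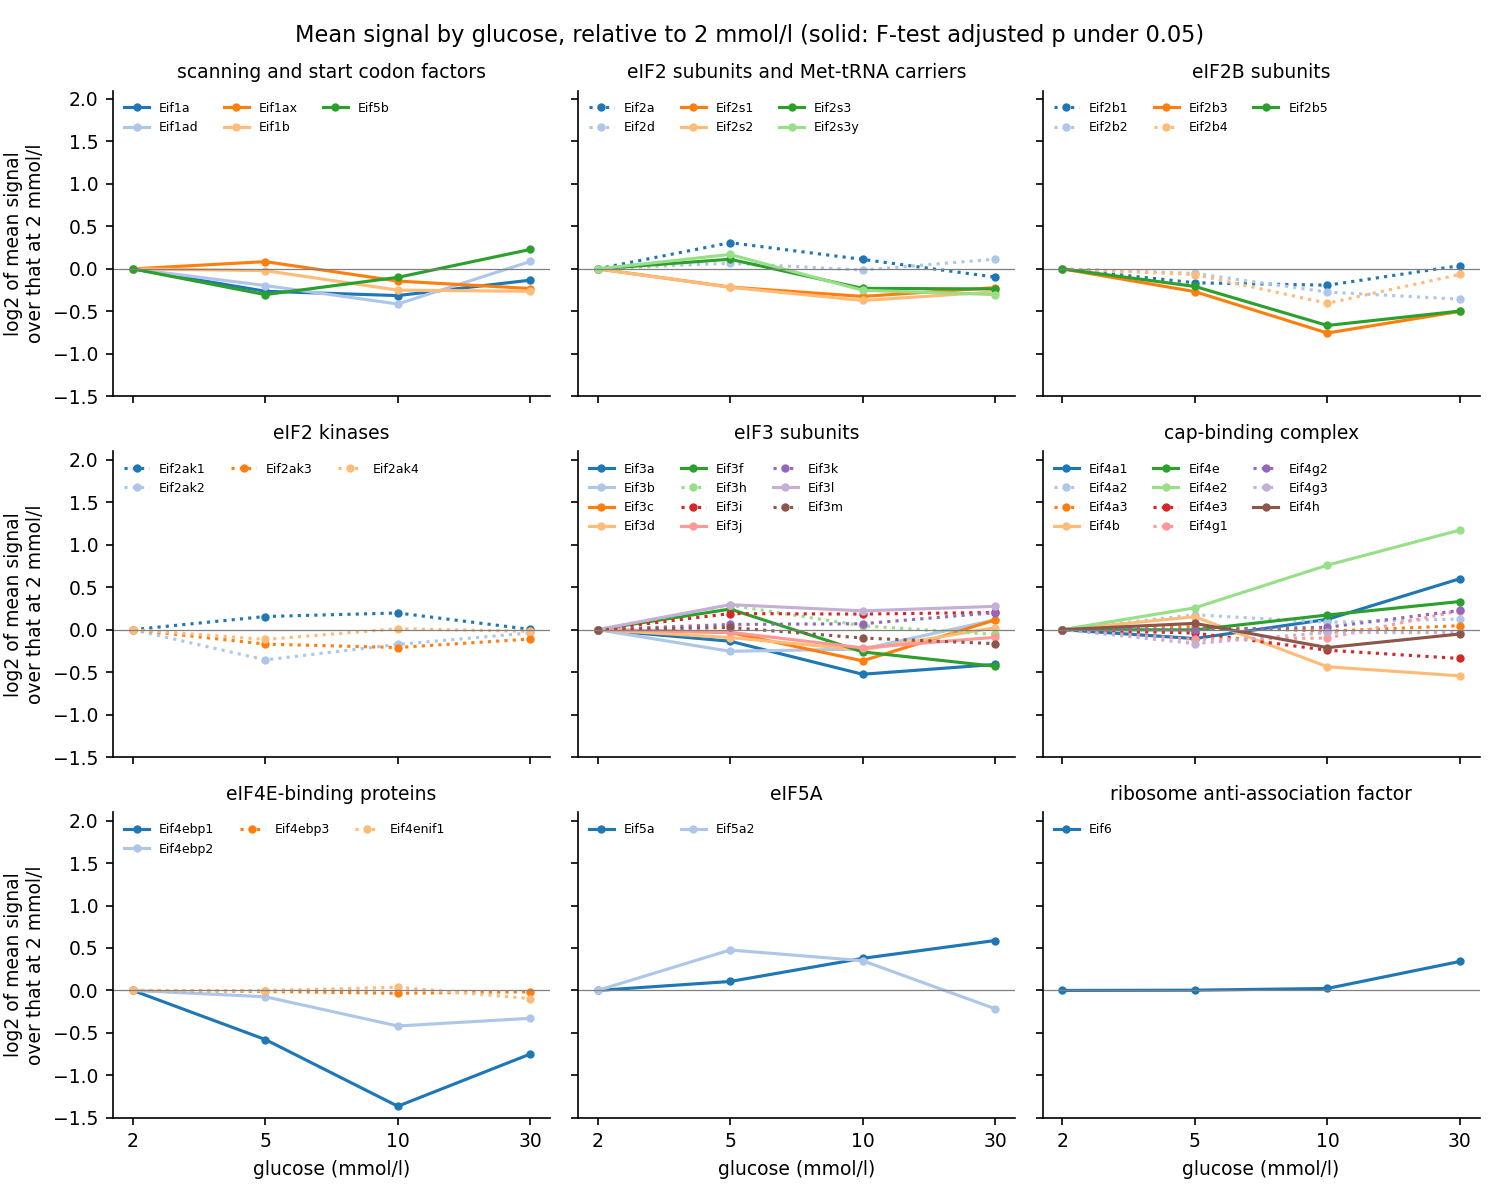
Log2 of the mean signal of each initiation factor gene at 5, 10 and 30 mmol/l glucose over its mean at 2 mmol/l (n = 4 arrays each), in 9 panels by role, with solid lines for genes that passed the F-test and dotted lines for those that did not. Eif4ebp1 dips lowest, at 10 mmol/l, Eif4e2 climbs highest, at 30 mmol/l, and the lines of the eIF2B panel lie lower at 10 than at 2 mmol/l.

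The neighbouring steps of the dose series differed. In 10 over 5 mmol/l, 4 members were higher and 13 lower (5.56% and 18.1%), against 10.0% and 11.1% of all probe sets. In 30 over 10 mmol/l the split ran the other way, with 9 higher and 1 lower (12.5% and 1.39%), against 3.26% and 3.56% of all. In 5 over 2 mmol/l, 0 were higher and 1 was lower (1.39%), against 1.66% and 0.94% of all. Over the wider span of 10 over 2 mmol/l, 4 were higher and 24 lower (5.56% and 33.3%), against 15.6% and 16.9% of all. In 30 over 2 mmol/l, 11 were higher and 15 lower (15.3% and 20.8%), shares close to the 16.3% and 20.6% of all probe sets. With only the upper 40% by mean level tested, 10 over 2 mmol/l gave 6 higher and 24 lower of 66 members. Of all 12417 probe sets at that level, 2615 were higher and 2863 lower. In 30 over 10 mmol/l, 11 of the 66 were higher and 1 lower, beside 643 and 701 of all. These comparisons share arrays, so their counts do not support each other. The median log2 change of the 72 members was -0.05 in 5 over 2, -0.10 in 10 over 5, 0.10 in 30 over 10, -0.17 in 10 over 2 and -0.06 in 30 over 2 mmol/l. The same medians over all 18625 probe sets were -0.02, 0.02, -0.04, 0.02 and -0.03.

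Arrays with the same replicate number varied together, and a fit with the number as a block gave more calls. With the block, 52 members passed the F-test (72.2%), against 55.2% of all probe sets. The block gave 6 higher and 7 lower in 5 over 2 mmol/l, against 5.87% and 4.0% of all probe sets. It gave 7 higher and 22 lower in 10 over 5 mmol/l, against 15.7% and 16% of all, and 18 higher and 1 lower in 30 over 10 mmol/l, against 6.6% and 8.18% of all. In 10 over 2 mmol/l it gave 7 higher and 31 lower, against 20.7% and 21.6% of all, and in 30 over 2 mmol/l 15 higher and 21 lower, against 20.7% and 25.6%. When each array was centred on its median, 10 over 5 mmol/l gave 0 higher and 16 lower members, and the split over all probe sets moved the same way, to 6.17% higher and 13.7% lower.

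**Figure D2:**
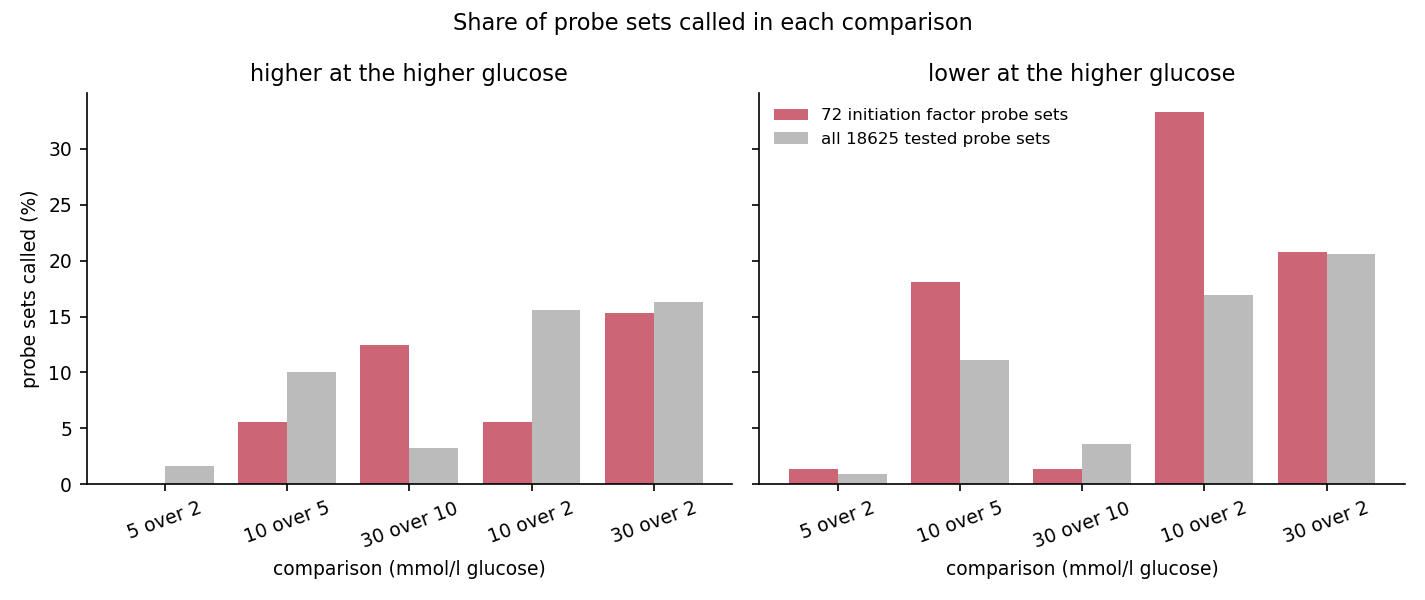
Bars give the percentage of probe sets called (adjusted p under 0.05) as higher (left panel) or lower (right panel) at the higher glucose of each of 5 comparisons, for the 72 initiation factor probe sets beside all 18625 tested. Members exceed the whole table most in the lower calls of 10 over 2 mmol/l (33.3% beside 16.9%) and in the higher calls of 30 over 10 mmol/l (12.5% beside 3.26%). The shares are not matched for mean level.

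Among the eIF4E-binding proteins, Eif4ebp1 changed most, Eif4ebp2 changed less and Eif4ebp3 showed no difference that passed a test. Eif4ebp1 (chr16:71495457-71508845, GRCr8) codes for eIF4E-binding protein 1, the best known of the mTORC1-controlled repressors of cap-dependent translation, and is also known as a target of ATF4. Its signals were 872, 857, 678 and 793 in 2 mmol/l, 560.3, 558, 436 and 591 in 5 mmol/l, 324, 257, 353 and 309.5 in 10 mmol/l, and 476, 484, 484 and 461 in 30 mmol/l. All arrays at 2 mmol/l lay above all others and all arrays at 10 mmol/l below all others, while 1 array at 5 mmol/l lay below those at 30 mmol/l. The mean was 800.2 ± 88.1, 536 ± 68.5, 311 ± 40.2 and 476 ± 11 at 2, 5, 10 and 30 mmol/l. The log2 change was -0.58 ± 0.11 in 5 over 2 mmol/l (limma adjusted p = 0.0113) and -0.79 ± 0.11 in 10 over 5 mmol/l (adjusted p = 5.82e-05). It then rose by 0.62 ± 0.11 in 30 over 10 mmol/l (adjusted p = 0.00206), higher in 4 of 4 replicate numbers. At 10 mmol/l it was 2.58-fold lower than at 2 mmol/l (log2 change -1.37 ± 0.11, adjusted p = 7.43e-08). It was the 1 member called in 5 over 2 mmol/l, and that call ended without replicate 2 at 2 mmol/l (adjusted p = 0.0517). Its other 4 calls held without each of the 16 arrays.

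Eif4ebp2 codes for the second eIF4E-binding protein, known in mouse as the main one of the brain. Its signals were 407, 383, 397 and 385 in 2 mmol/l, 379, 316, 364 and 435 in 5 mmol/l, 338, 214, 294 and 330.5 in 10 mmol/l, and 384, 253, 290.1 and 326 in 30 mmol/l. The 10 mmol/l arrays all lay below the 2 mmol/l arrays, while 5 and 30 mmol/l overlapped both. It was lower in 10 over 2 mmol/l (log2 change -0.44 ± 0.14, adjusted p = 0.0239), where the call ended without any 1 of 2 arrays (adjusted p up to 0.0972 without replicate 2 at 10 mmol/l). With the block it was lower also in 10 over 5 mmol/l (adjusted p = 0.00838) and 30 over 2 mmol/l (adjusted p = 0.0068). Eif4ebp3, the third member, had signals of 360.3, 292, 336 and 292 in 2 mmol/l, 349, 265, 348 and 309 in 5 mmol/l, 318, 289, 329.5 and 315 in 10 mmol/l, and 315, 351, 286 and 315 in 30 mmol/l, with all 4 groups overlapping (F-test adjusted p = 0.996). Eif4enif1 codes for the eIF4E transporter, which carries eIF4E into the nucleus. It averaged 188 ± 12.6, 187 ± 12.7, 193 ± 26.2 and 175 ± 9.82 at 2, 5, 10 and 30 mmol/l (F-test adjusted p = 0.737).

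**Figure D3:**
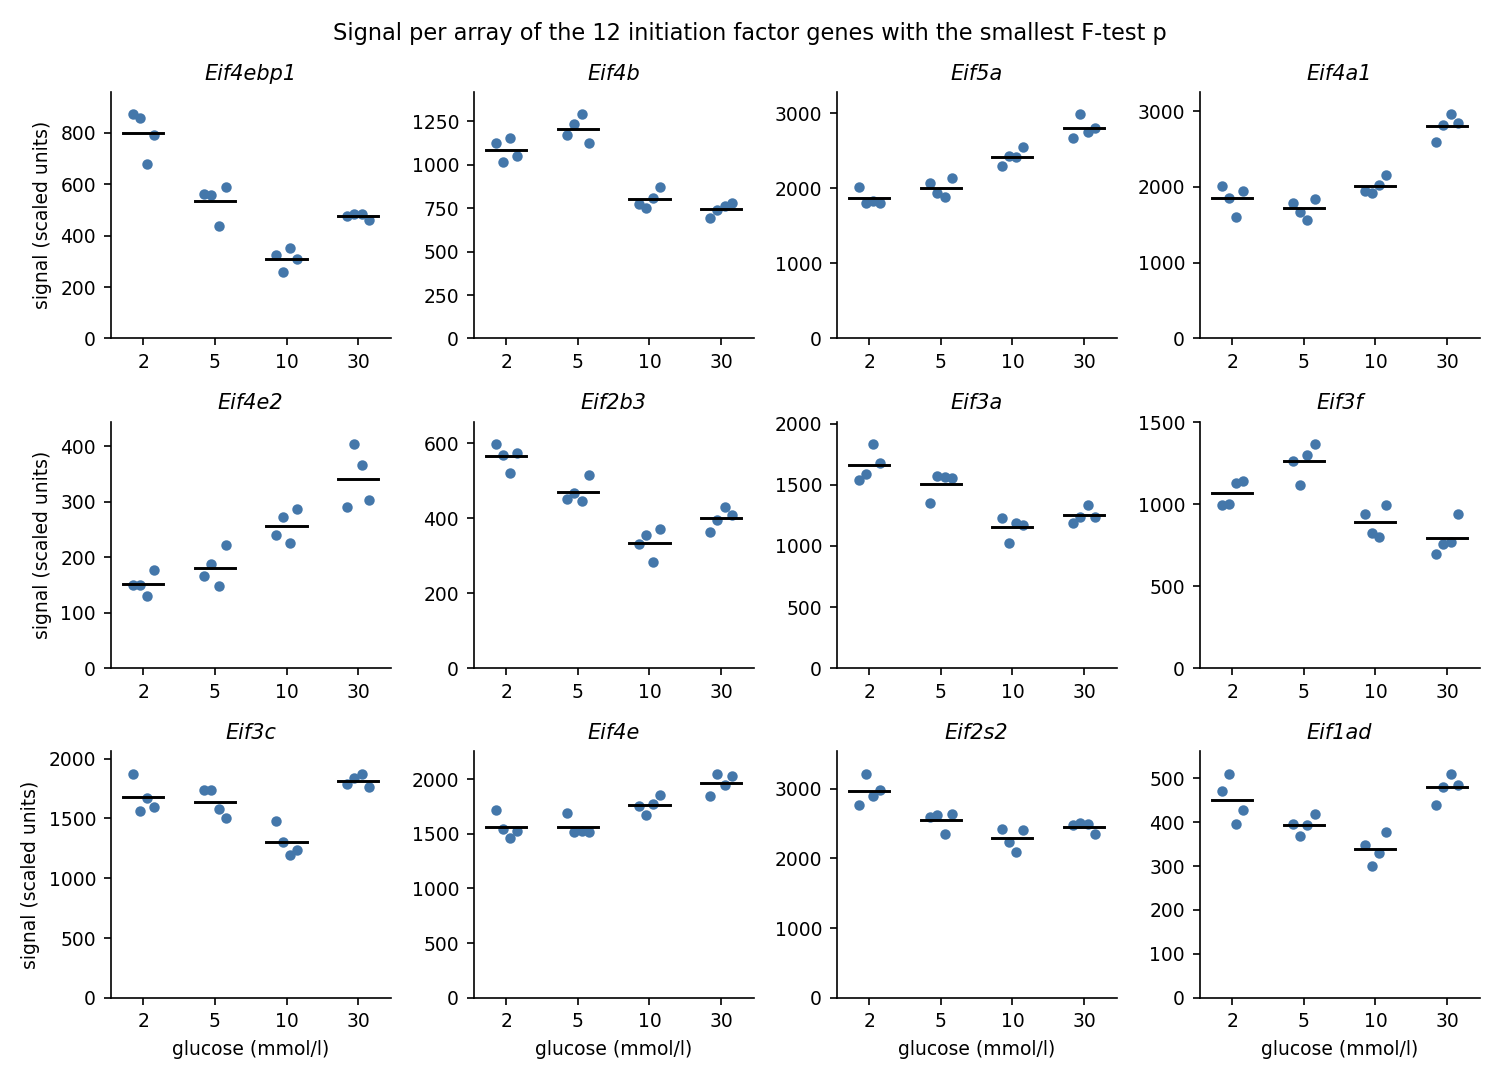
Signal in scaled units of the 12 initiation factor genes with the smallest F-test p, by glucose concentration in mmol/l. Each point is 1 of 4 arrays and each bar the mean, on axes that start at 0. Eif4ebp1 falls through 10 mmol/l and is higher again at 30 mmol/l, Eif4e2, Eif5a and Eif4a1 are highest at 30 mmol/l, and Eif4b and Eif3f are lower at 10 and 30 than at 5 mmol/l.

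The cap-binding factors moved in both directions. Of their 11 genes, 5 passed the F-test. Of their 21 probe sets, 9 passed, against 41.8% of all probe sets. In 30 over 2 mmol/l, 4 genes were higher (Eif4e2, Eif4a1, Eif4e and Eif4g2, the last reversed to -0.12 after quantile normalization) and Eif4b was lower. By probe sets 7 of the 21 were higher and 2 lower, against 16.3% and 20.6% of all. Eif4e2 codes for the eIF4E homologue 4EHP, which binds the cap but not eIF4G and is known as a translational repressor. Its signals were 149, 150.5, 129 and 176 in 2 mmol/l, 166, 188, 148 and 222 in 5 mmol/l, 239.8, 273, 225 and 287 in 10 mmol/l, and 291, 404, 366 and 304 in 30 mmol/l. No array at 30 mmol/l overlapped any at 10 mmol/l, nor any at 10 mmol/l those at 5 mmol/l, while 5 and 2 mmol/l overlapped. Eif4e2 was 2.25-fold higher in 30 over 2 mmol/l (log2 change 1.17 ± 0.14, adjusted p = 3.65e-06). It was also higher in 10 over 5 mmol/l (0.51 ± 0.14, adjusted p = 0.0139), where the call ended without 1 array (adjusted p = 0.0511 without replicate 3 at 5 mmol/l). The step of 30 over 10 mmol/l (0.41 ± 0.14) had an adjusted p of 0.0941, and 0.0215 with the block.

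Eif4e codes for the cap-binding protein itself. Its signals were 1722, 1548, 1463 and 1524 in 2 mmol/l, 1688, 1512, 1527 and 1517 in 5 mmol/l, 1757, 1669, 1771 and 1854 in 10 mmol/l, and 1850.1, 2049, 1947 and 2026 in 30 mmol/l. All 30 mmol/l arrays lay above all 2 mmol/l and 5 mmol/l arrays, while the 10 mmol/l arrays overlapped the groups on either side. In 30 over 2 mmol/l Eif4e was higher (log2 change 0.33 ± 0.07, adjusted p = 0.000671), but after quantile normalization the adjusted p was 0.137. A second, dimmer probe set of Eif4e did not pass the F-test (adjusted p = 0.644), and RefSeq lists 10 pseudogenes of Eif4e, whose near-identical sequence the array may not tell apart.

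Eif4a1 codes for the main cap-complex helicase, which unwinds the start of the mRNA. Its signals were 2012, 1849, 1598 and 1939.6 in 2 mmol/l, 1791, 1673, 1568 and 1846 in 5 mmol/l, 1946, 1921, 2029.7 and 2151 in 10 mmol/l, and 2589, 2822, 2956 and 2846 in 30 mmol/l. The 30 mmol/l arrays stood above all others, and the 10 mmol/l arrays above those at 5 mmol/l. Eif4a1 was higher in 30 over 10 mmol/l (0.48 ± 0.08, adjusted p = 0.000919) and in 30 over 2 mmol/l (0.60 ± 0.08, adjusted p = 7.22e-06). In 10 over 5 mmol/l it was higher by 0.23 ± 0.08 (adjusted p = 0.0429), where the call ended without any 1 of 9 arrays (adjusted p up to 0.127 without replicate 3 at 5 mmol/l). Its close paralog Eif4a2 averaged 4232 ± 392, 4777 ± 336, 4494 ± 257 and 4616 ± 224 at 2, 5, 10 and 30 mmol/l in its bright probe set (F-test adjusted p = 0.217), while a dim one was higher in 30 over 2 mmol/l (0.73 ± 0.20, adjusted p = 0.00799). RefSeq lists 8 pseudogenes of Eif4a1. Eif4a3, the helicase of the exon junction complex, averaged 688 ± 106, 705 ± 84.7, 679 ± 40.3 and 710.3 ± 62 at 2, 5, 10 and 30 mmol/l (F-test adjusted p = 0.939).

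Eif4b, the cofactor that stimulates the eIF4A helicase, was lower at 10 and 30 mmol/l than at 2 and 5 mmol/l. Its signals were 1124, 1014, 1152 and 1052 in 2 mmol/l, 1174, 1232, 1291 and 1128 in 5 mmol/l, 776, 752, 809 and 870.5 in 10 mmol/l, and 695, 743, 762 and 779 in 30 mmol/l. Every array at 10 and 30 mmol/l lay below every array at 2 and 5 mmol/l. The log2 change was -0.59 ± 0.07 in 10 over 5 mmol/l (adjusted p = 1.32e-05) and -0.54 ± 0.07 in 30 over 2 mmol/l (adjusted p = 1.08e-05). A second probe set gave -0.64 ± 0.14 (adjusted p = 0.00226) and -0.62 ± 0.14 (adjusted p = 0.00154) for the same comparisons. Eif4h, a smaller cofactor of eIF4A related to eIF4B, averaged 1404 ± 42.8, 1478 ± 103, 1212 ± 27.1 and 1355 ± 123 at 2, 5, 10 and 30 mmol/l. It was lower in 10 over 5 mmol/l (-0.28 ± 0.07, adjusted p = 0.00802) and in 10 over 2 mmol/l (-0.21 ± 0.07, adjusted p = 0.0302), where its second probe set gave -0.83 ± 0.18 (adjusted p = 0.00183). For the brighter probe set the call ended without any 1 of 5 arrays (adjusted p up to 0.0728 without replicate 1 at 2 mmol/l).

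The scaffolds showed smaller differences. Eif4g1, the main scaffold, averaged 396 ± 68.6, 366 ± 34.7, 369.8 ± 52.9 and 462 ± 84 at 2, 5, 10 and 30 mmol/l, and neither it nor its 3 other probe sets passed the F-test. Eif4g3, its paralog, averaged 225 ± 63, 201 ± 14.1, 219.5 ± 57.4 and 219 ± 74.3 at 2, 5, 10 and 30 mmol/l (F-test adjusted p = 0.964). Eif4g2 codes for DAP5, a relative of eIF4G that lacks the eIF4E-binding part. All 3 of its probe sets were higher in 30 over 2 mmol/l, at log2 changes of 0.23 ± 0.08, 0.48 ± 0.13 and 0.31 ± 0.11 (adjusted p = 0.0271, 0.00594 and 0.0358). The brightest of them is the one that turned direction after quantile normalization (adjusted p = 0.261), and the call ended without any 1 of 4 arrays (adjusted p up to 0.112 without replicate 2 at 2 mmol/l). Eif4e3, a further cap-binding homologue, averaged 151 ± 15.9, 147 ± 36.6, 128 ± 35.1 and 119 ± 32.6 at 2, 5, 10 and 30 mmol/l (F-test adjusted p = 0.406).

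The eIF2 subunits were lower at 10 than at 2 mmol/l in 3 of 4 genes, and the 2 alternative carriers of methionyl-tRNA did not pass any test. Of all probe sets, 16.9% were lower in 10 over 2 mmol/l. Eif2s2, the beta subunit whose start window is printed above, had signals of 2769.8, 3215, 2895 and 2984 in 2 mmol/l, 2591, 2623, 2351 and 2639.9 in 5 mmol/l, 2429, 2241, 2087 and 2408 in 10 mmol/l, and 2480.5, 2505, 2489 and 2358 in 30 mmol/l. All arrays at 5, 10 and 30 mmol/l lay below all arrays at 2 mmol/l. Eif2s2 was lower in 10 over 2 mmol/l (-0.37 ± 0.07, adjusted p = 0.000275) and in 30 over 2 mmol/l (-0.27 ± 0.07, adjusted p = 0.00357). With the block, 5 over 2 mmol/l (-0.22 ± 0.07) also passed (adjusted p = 0.0204, 0.0901 without it). Eif2s1, the alpha subunit that the eIF2 kinases phosphorylate, averaged 1651 ± 66.9, 1423 ± 71.5, 1318 ± 108 and 1417 ± 149 at 2, 5, 10 and 30 mmol/l, and its 10 over 2 mmol/l change was -0.33 ± 0.08 (adjusted p = 0.0035). Eif2s3, the GTP-binding gamma subunit, averaged 539 ± 22.9, 583 ± 40.5, 459 ± 20.05 and 457 ± 30.5 at 2, 5, 10 and 30 mmol/l, with -0.34 ± 0.08 in 10 over 5 mmol/l (adjusted p = 0.00338) and -0.23 ± 0.08 in 10 over 2 mmol/l (adjusted p = 0.0277), where the call ended without any 1 of 5 arrays (adjusted p up to 0.0818 without replicate 3 at 10 mmol/l). Eif2s3y, its near-identical copy on the Y chromosome, averaged 1056 ± 94.7, 1188 ± 186, 886 ± 136 and 856 ± 89.4 at 2, 5, 10 and 30 mmol/l. In 10 over 5 mmol/l Eif2s3y changed by -0.42 ± 0.12 (adjusted p = 0.0168), where the call ended without any 1 of 2 arrays (adjusted p up to 0.0694 without replicate 3 at 10 mmol/l). With the block it also passed in 10 over 2 mmol/l (-0.26 ± 0.12, adjusted p = 0.0475, 0.106 without it), which made 4 of 4 subunit genes lower. Of all probe sets, 21.6% were lower there with the block. The array may not separate the pair. Eif2a averaged 375 ± 35.2, 464 ± 133, 405 ± 82.5 and 350.2 ± 47.8 at 2, 5, 10 and 30 mmol/l (F-test adjusted p = 0.289) and Eif2d 236 ± 18.2, 247 ± 24.9, 234 ± 25.2 and 256 ± 30.2 at 2, 5, 10 and 30 mmol/l (F-test adjusted p = 0.737). Both code for proteins known to deliver initiator tRNA without eIF2.

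Of the 5 eIF2B subunits, the exchange factor that recharges eIF2, 3 were lower in 10 over 2 mmol/l and none was higher, by limma's adjusted or unadjusted p. By adjusted p, 16.9% of all probe sets were lower there and 15.6% higher, while shares by unadjusted p are not given here. Eif2b3 (chr5:135728764-135795276, GRCr8), the gamma subunit of its catalytic part, had signals of 598, 569.5, 522 and 574 in 2 mmol/l, 452, 468, 445 and 514 in 5 mmol/l, 330.5, 356, 283 and 372 in 10 mmol/l, and 365, 396, 431 and 409 in 30 mmol/l. The arrays at 10 mmol/l all lay below those at 5 mmol/l, and these below those at 2 mmol/l, while 30 mmol/l overlapped 10 mmol/l. The log2 change was -0.49 ± 0.09 in 10 over 5 (adjusted p = 0.000784), -0.76 ± 0.09 in 10 over 2 (adjusted p = 5.82e-06) and -0.50 ± 0.09 in 30 over 2 mmol/l (adjusted p = 0.000298). Eif2b5, the catalytic epsilon subunit, had signals of 189.5, 158, 163 and 167 in 2 mmol/l, 182, 158, 140.4 and 108 in 5 mmol/l, 82.9, 131, 107 and 106 in 10 mmol/l, and 126, 128, 123 and 104 in 30 mmol/l. All arrays at 10 mmol/l lay below all at 2 mmol/l, as did those at 30 mmol/l, while 5 mmol/l overlapped the other groups. Eif2b5 changed by -0.68 ± 0.16 in 10 over 2 mmol/l (adjusted p = 0.0026), and a second, dimmer probe set by -0.05 ± 0.17 (adjusted p = 0.853). Its changes were -0.50 ± 0.16 in 30 over 2 mmol/l (adjusted p = 0.0184), where the call ended without any 1 of 2 arrays (adjusted p up to 0.0591 without replicate 4 at 30 mmol/l), and -0.45 ± 0.16 in 10 over 5 mmol/l (adjusted p = 0.048), where the call ended without any 1 of 13 arrays (adjusted p up to 0.157 without replicate 1 at 5 mmol/l).

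The regulatory eIF2B subunits differed less. Eif2b4, delta, averaged 361 ± 37, 345 ± 74.4, 273 ± 22.9 and 345 ± 13 at 2, 5, 10 and 30 mmol/l and was lower in 10 over 2 mmol/l (-0.40 ± 0.13, adjusted p = 0.0221), where the call ended without any 1 of 3 arrays (adjusted p up to 0.0725 without replicate 4 at 2 mmol/l). Eif2b2, beta, averaged 247 ± 42.9, 237 ± 49.9, 204 ± 12.7 and 192 ± 21.7 at 2, 5, 10 and 30 mmol/l and changed by -0.35 ± 0.14 in 30 over 2 mmol/l (adjusted p = 0.0654, 0.0129 with the block). Eif2b1, alpha, averaged 269.9 ± 36.1, 241 ± 10.5, 236 ± 20.2 and 277 ± 29.7 at 2, 5, 10 and 30 mmol/l (F-test adjusted p = 0.208).

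None of the 4 eIF2 kinase genes passed limma's F-test, which 41.8% of all probe sets passed, or any comparison. At an unadjusted p under 0.05, 1 of them did in the F-test, 1 was lower in 5 over 2 mmol/l and 1 was lower in 10 over 2 mmol/l. The shares of all probe sets at that unadjusted threshold are not given here. Eif2ak3 codes for PERK, the kinase of the endoplasmic reticulum that beta cells are known to depend on. Its signals were 301, 314, 297 and 254 in 2 mmol/l, 263, 280.1, 248 and 244 in 5 mmol/l, 276, 244, 255 and 233 in 10 mmol/l, and 283, 248, 292 and 258 in 30 mmol/l, with the groups at 5, 10 and 30 mmol/l overlapping that at 2 mmol/l (F-test adjusted p = 0.275). Its change in 10 over 2 mmol/l was -0.21 ± 0.09, with an adjusted p of 0.103, and 0.048 with the block. Eif2ak4 codes for GCN2, which senses uncharged tRNA. Its signals were 267, 234, 252 and 224 in 2 mmol/l, 158, 189, 307 and 248 in 5 mmol/l, 229.9, 223, 254 and 277 in 10 mmol/l, and 195, 278, 212 and 278 in 30 mmol/l, overlapping throughout (F-test adjusted p = 0.806). Eif2ak2 codes for PKR, the kinase activated by double-stranded RNA, with signals of 192, 261, 199.8 and 189.8 in 2 mmol/l, 159.6, 163, 183 and 153 in 5 mmol/l, 172, 191, 189 and 195 in 10 mmol/l, and 220.1, 229.9, 200.2 and 171 in 30 mmol/l. The 5 mmol/l arrays lay below those at 2 mmol/l (-0.35 ± 0.12, adjusted p = 0.136, and 0.0433 with the block). Eif2ak1 codes for HRI, first known as the haem-regulated kinase, and had signals of 274, 315, 396 and 325 in 2 mmol/l, 361, 345, 381 and 371 in 5 mmol/l, 346, 384, 403 and 368 in 10 mmol/l, and 333, 308, 320.1 and 352 in 30 mmol/l (F-test adjusted p = 0.199), with all groups overlapping. Its 2 probe sets disagreed in 10 over 2 mmol/l, at 0.21 ± 0.10 for this one and -0.43 ± 0.17 for a dimmer one (adjusted p = 0.064). With the block the dimmer one was lower in 10 over 5 (adjusted p = 0.0414), 10 over 2 (adjusted p = 0.00117) and 30 over 2 mmol/l (adjusted p = 0.0103). With the block, 1 of the 4 kinase genes passed the F-test, Eif2ak2 (adjusted p = 0.0325), against 55.2% of all probe sets.

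Of 11 genes for eIF3, the large complex that holds the small ribosomal subunit and the other factors together, 7 passed the F-test. Of their 16 probe sets, 9 passed, against 41.8% of all probe sets. In 10 over 2 mmol/l, 5 genes were lower (Eif3a, Eif3c, Eif3d, Eif3f and Eif3j) and Eif3i was higher. By probe sets 8 of the 16 were lower and 1 higher, against 16.9% and 15.6% of all. Eif3a, the largest subunit, had signals of 1542, 1585, 1833 and 1681 in 2 mmol/l, 1352, 1571, 1561 and 1557 in 5 mmol/l, 1231, 1026, 1189 and 1168 in 10 mmol/l, and 1191, 1233, 1335 and 1239.8 in 30 mmol/l. All arrays at 10 and 30 mmol/l lay below all at 2 and 5 mmol/l. It changed by -0.39 ± 0.08 in 10 over 5 (adjusted p = 0.0013), -0.53 ± 0.08 in 10 over 2 (adjusted p = 4.42e-05) and -0.41 ± 0.08 in 30 over 2 mmol/l (adjusted p = 0.000409). A second probe set gave -0.68 ± 0.16 in 10 over 2 mmol/l (adjusted p = 0.0031).

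Eif3c, a core subunit that binds eIF1, had signals of 1872, 1562, 1673 and 1599 in 2 mmol/l, 1738, 1735, 1578 and 1501 in 5 mmol/l, 1474, 1301, 1192 and 1232 in 10 mmol/l, and 1784, 1841, 1873 and 1759 in 30 mmol/l. Arrays at 10 mmol/l were the lowest, all below those of each other concentration. Eif3c was lower in 10 over 5 mmol/l (-0.34 ± 0.08, adjusted p = 0.00455) and higher in 30 over 10 mmol/l (0.49 ± 0.08, adjusted p = 0.000912). Its second probe set gave -0.48 ± 0.15 (adjusted p = 0.0317) and 0.56 ± 0.15 (adjusted p = 0.0295). Eif3b, a scaffold subunit, had signals of 842, 772, 719.5 and 688 in 2 mmol/l, 622, 609.6, 571 and 728 in 5 mmol/l, 684, 574, 691 and 629 in 10 mmol/l, and 794, 859, 881 and 737 in 30 mmol/l. The 30 mmol/l arrays all stood above the 10 mmol/l arrays (0.34 ± 0.09, adjusted p = 0.0317), where the call ended without any 1 of 5 arrays (adjusted p up to 0.104 without replicate 2 at 10 mmol/l). Eif3d, a subunit that can itself bind the cap of some mRNAs, averaged 1386 ± 64.4, 1300.0 ± 83.4, 1174 ± 78.7 and 1409 ± 117 at 2, 5, 10 and 30 mmol/l. It was higher in 30 over 10 mmol/l (0.26 ± 0.07, adjusted p = 0.0411), where the call ended without any 1 of 8 arrays (adjusted p up to 0.127 without replicate 1 at 30 mmol/l).

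Eif3f followed another course. Its signals were 996, 1000.3, 1129 and 1144 in 2 mmol/l, 1262, 1119, 1302 and 1366 in 5 mmol/l, 940.5, 822, 801 and 997 in 10 mmol/l, and 699, 756, 769 and 943 in 30 mmol/l. They were highest at 5 mmol/l, where all arrays exceeded all those at 10 and 30 mmol/l. Eif3f fell by 0.51 on the log2 scale in 10 over 5 mmol/l (SE 0.10, adjusted p = 0.00112) and by 0.44 in 30 over 2 mmol/l (SE 0.10, adjusted p = 0.00186). Eif3h, which with Eif3f forms the MPN-domain pair of eIF3, averaged 1373 ± 205, 1676 ± 173, 1417 ± 188 and 1320.3 ± 127 at 2, 5, 10 and 30 mmol/l, and passed with the block in 5 over 2 (0.29 ± 0.11, adjusted p = 0.0104) and 10 over 5 mmol/l (-0.25 ± 0.11, adjusted p = 0.00993), not without it (adjusted p = 0.187 and 0.138). Eif3j, the loosely bound subunit near the mRNA entry site, averaged 1332 ± 25.3, 1303 ± 47, 1148 ± 58.2 and 1251 ± 24.8 at 2, 5, 10 and 30 mmol/l and was lower in 10 over 2 mmol/l (-0.22 ± 0.06, adjusted p = 0.00857).

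Eif3i and Eif3l were lowest at 2 mmol/l, and their means differed little between 5 and 30 mmol/l. Eif3i, a propeller subunit, had signals of 744, 710.2, 665 and 754 in 2 mmol/l, 835, 778, 800.4 and 863 in 5 mmol/l, 814, 776, 825 and 847 in 10 mmol/l, and 799.9, 789.8, 847 and 869 in 30 mmol/l. The arrays at 2 mmol/l all lay below those of the other 3 concentrations. It was higher in 10 over 2 mmol/l (0.18 ± 0.07, adjusted p = 0.0446), where the call ended without any 1 of 9 arrays (adjusted p up to 0.133 without replicate 3 at 2 mmol/l). It was also higher in 30 over 2 mmol/l (0.20 ± 0.07, adjusted p = 0.0246), where the call ended without any 1 of 3 arrays (adjusted p up to 0.0831 without replicate 3 at 2 mmol/l). Eif3l, a peripheral subunit, averaged 1084 ± 86.6, 1329.5 ± 131, 1264 ± 161 and 1311 ± 38.1 at 2, 5, 10 and 30 mmol/l and was higher in 30 over 2 mmol/l (0.28 ± 0.09, adjusted p = 0.0229), where the call ended without any 1 of 3 arrays (adjusted p up to 0.0673 without replicate 3 at 2 mmol/l). With the block both were higher already in 5 over 2 mmol/l, Eif3i by 0.19 ± 0.07 (adjusted p = 0.0385, 0.15 without it) and Eif3l by 0.29 ± 0.09 (adjusted p = 0.00734, 0.0958 without it). Eif3k averaged 664 ± 44.6, 693 ± 82.9, 697 ± 109 and 763 ± 64.5 at 2, 5, 10 and 30 mmol/l (F-test adjusted p = 0.453) and Eif3m 2479.7 ± 232, 2524 ± 233, 2316 ± 278 and 2212 ± 162 at 2, 5, 10 and 30 mmol/l (F-test adjusted p = 0.276).

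**Figure D4:**
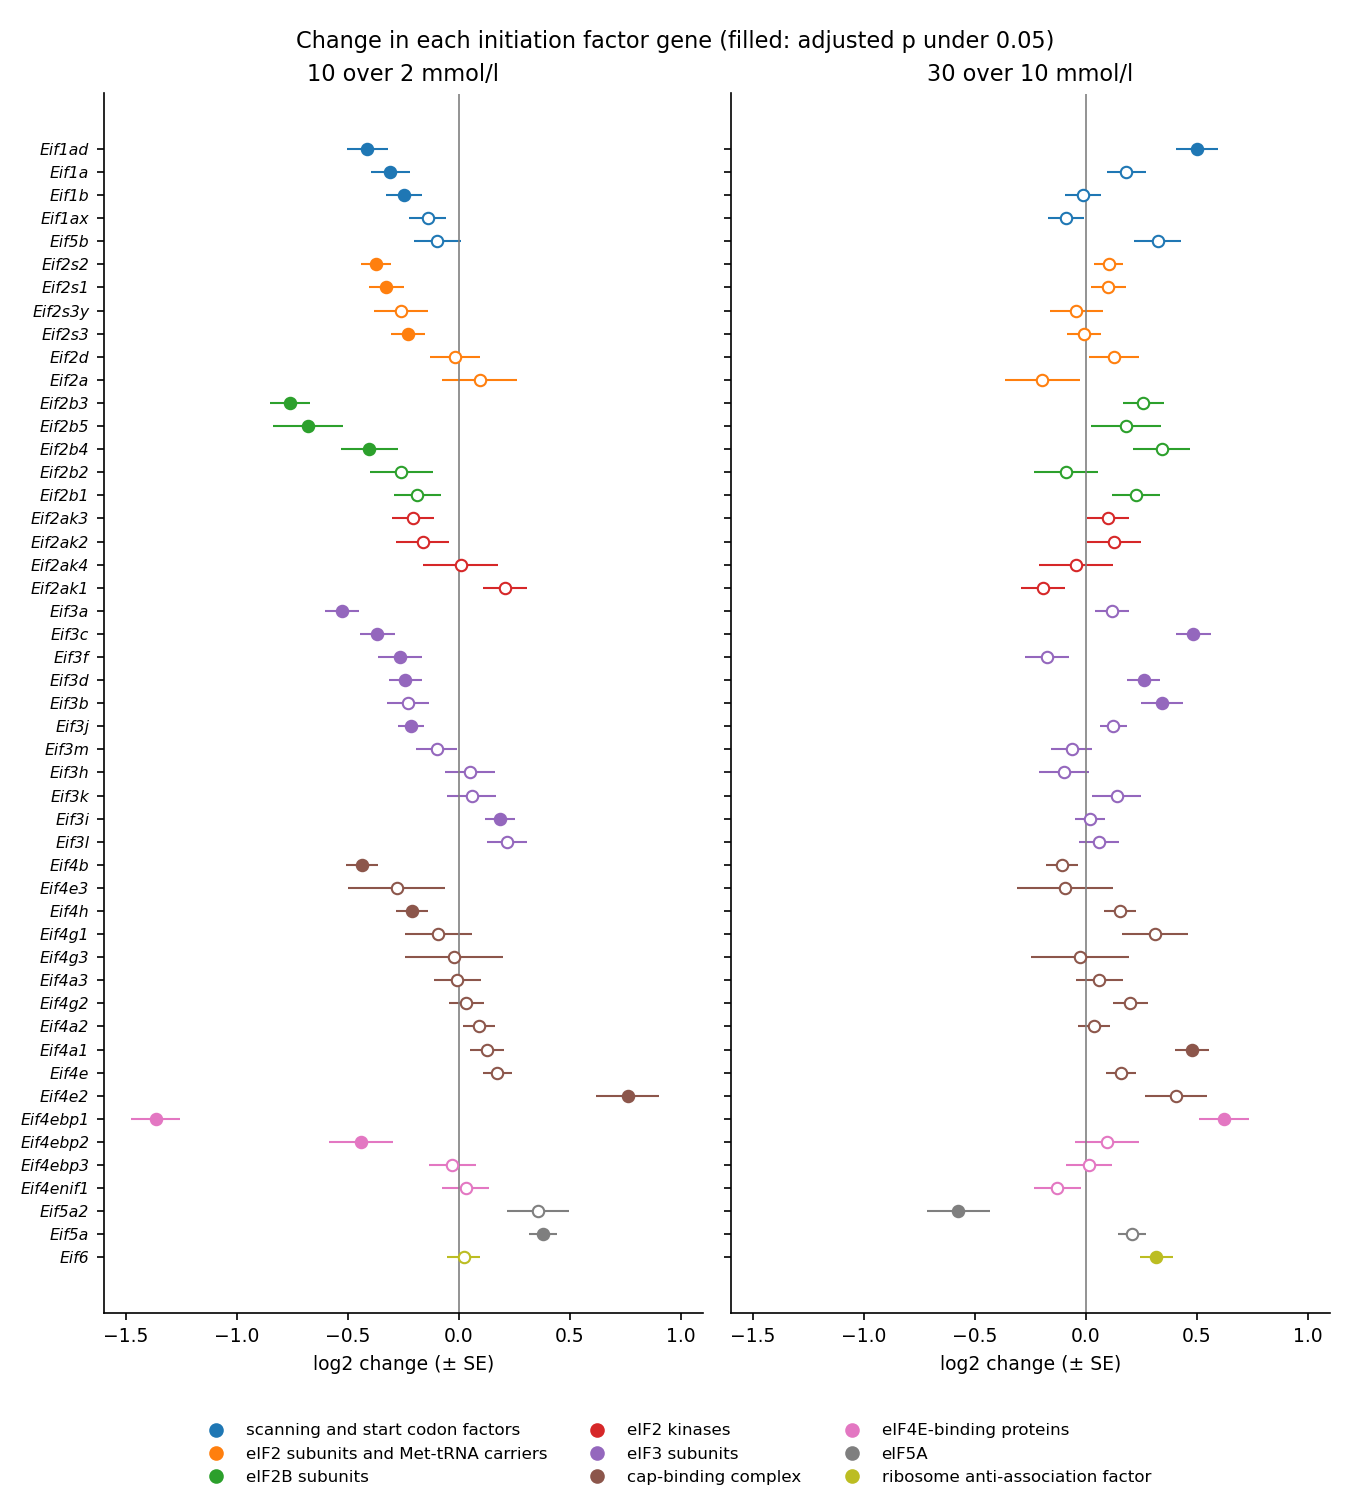
Log2 change with its SE for each of the 49 initiation factor genes in 10 over 2 mmol/l (left) and 30 over 10 mmol/l (right), coloured by role, with filled points for an adjusted p under 0.05. Most filled points lie left of 0 in 10 over 2 mmol/l, with Eif4ebp1 farthest, and right of 0 in 30 over 10 mmol/l, with Eif5a2 the 1 filled point on the left there.

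The 5 genes grouped as scanning and start codon factors all passed the F-test by their brightest probe set, with different courses. Of their 10 probe sets, 6 passed, against 41.8% of all probe sets. The group name is only a label, and the group takes in Eif1ad and the subunit-joining factor Eif5b. Eif1ad codes for a protein with a domain like that of eIF1A. Its signals were 471, 509.9, 395 and 429 in 2 mmol/l, 395, 369, 394 and 418 in 5 mmol/l, 347, 300.5, 329 and 379 in 10 mmol/l, and 439.6, 481, 510.0 and 486 in 30 mmol/l. Every 10 mmol/l array lay below every 30 mmol/l and 2 mmol/l array. Eif1ad was higher in 30 over 10 mmol/l (0.50 ± 0.09, adjusted p = 0.0031) and lower in 10 over 2 mmol/l (-0.41 ± 0.09, adjusted p = 0.00237). Eif1a averaged 1135 ± 146, 945 ± 59.3, 913 ± 66.2 and 1035 ± 52.1 at 2, 5, 10 and 30 mmol/l and was lower in 10 over 2 mmol/l (-0.31 ± 0.09, adjusted p = 0.0111). Eif1ax, the X-linked gene of the factor that opens the small subunit for scanning, averaged 456 ± 38, 484 ± 37.8, 413 ± 18.4 and 388 ± 17.3 at 2, 5, 10 and 30 mmol/l and was lower in 30 over 2 mmol/l (-0.23 ± 0.08, adjusted p = 0.0367), where the call ended without any 1 of 5 arrays (adjusted p up to 0.11 without replicate 2 at 2 mmol/l). Eif1b, a close relative of the start codon factor eIF1, averaged 537 ± 53.1, 529 ± 23.7, 451 ± 27.8 and 447 ± 10.6 at 2, 5, 10 and 30 mmol/l and was lower in 10 over 2 mmol/l (-0.25 ± 0.08, adjusted p = 0.0255), where the call ended without any 1 of 6 arrays (adjusted p up to 0.0886 without replicate 1 at 2 mmol/l). It was also lower in 30 over 2 mmol/l (-0.26 ± 0.08, adjusted p = 0.0174), where the call ended without 1 array (adjusted p = 0.0633 without replicate 1 at 2 mmol/l). Eif5b, the GTPase that joins the large subunit, averaged 301 ± 33.2, 244 ± 12.2, 281 ± 24.5 and 352 ± 39.2 at 2, 5, 10 and 30 mmol/l, lowest at 5 and highest at 30 mmol/l (F-test adjusted p = 0.00395). No single step of its brightest probe set passed without the block. A dimmer probe set of Eif5b was higher in 10 over 5 mmol/l (0.63 ± 0.21, adjusted p = 0.0358). In 10 over 2 mmol/l its 3 probe sets differed in sign, from -0.10 to 0.40, and none was called.

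By their brightest probe sets, the 2 eIF5A genes parted most at 30 mmol/l. In 10 over 2 mmol/l Eif5a changed by 0.38 ± 0.06 (adjusted p = 0.000158). Eif5a2 changed there by 0.36 ± 0.14 (adjusted p = 0.0602), and by -0.13 ± 0.14 in 10 over 5 mmol/l (adjusted p = 0.565). Eif5a (chr10:55138821-55143272, GRCr8) codes for the factor with the hypusine residue that helps ribosomes through difficult peptide bonds. Its signals were 2020.2, 1811, 1829 and 1808 in 2 mmol/l, 2067, 1942, 1889.7 and 2136 in 5 mmol/l, 2299, 2432, 2419 and 2553 in 10 mmol/l, and 2675, 2988, 2758 and 2803 in 30 mmol/l. All 30 mmol/l arrays lay above all 10 mmol/l arrays, and these above those at 2 and 5 mmol/l. Eif5a was higher in 30 over 2 mmol/l (log2 change 0.59 ± 0.06, adjusted p = 1.02e-06) and higher in 10 over 5 mmol/l (0.27 ± 0.06, adjusted p = 0.00432). Eif5a2, its paralog of narrower tissue range, had signals of 112, 148, 112 and 106 in 2 mmol/l, 156, 158, 184 and 169 in 5 mmol/l, 139.6, 165, 136 and 170.4 in 10 mmol/l, and 106, 79.5, 113 and 114 in 30 mmol/l. All 5 mmol/l arrays exceeded all 2 mmol/l arrays, and all 30 mmol/l arrays lay below all at 10 mmol/l. In 30 over 10 mmol/l Eif5a2 fell by 0.57 on the log2 scale (SE 0.14, adjusted p = 0.0184), where the call ended without any 1 of 3 arrays (adjusted p up to 0.0668 without replicate 2 at 30 mmol/l). In 5 over 2 mmol/l the change was 0.49 ± 0.14 (adjusted p = 0.0726, 0.0338 with the block). The 2 probe sets of Eif5a2 differed in sign in 10 over 2 mmol/l, at 0.36 ± 0.14 and -0.33 ± 0.16. The second gave -0.01 ± 0.16 in 5 over 2 mmol/l (adjusted p = 0.988). It was lower in 30 over 2 mmol/l (-0.70 ± 0.16, adjusted p = 0.00267), where the first was not called (-0.22 ± 0.14, adjusted p = 0.247).

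Eif6 keeps the large ribosomal subunit from joining the small one until it is released. Its signals were 883, 942, 923 and 998 in 2 mmol/l, 895, 949, 991 and 919 in 5 mmol/l, 865, 994, 920.1 and 1028 in 10 mmol/l, and 1138, 1217, 1295 and 1097 in 30 mmol/l. Each 30 mmol/l array exceeded each array of the other 3 concentrations, which overlapped. Eif6 was higher in 30 over 10 mmol/l (0.32 ± 0.07, adjusted p = 0.0144), where the call ended without 1 array (adjusted p = 0.0574 without replicate 3 at 30 mmol/l), and in 30 over 2 mmol/l (0.34 ± 0.07, adjusted p = 0.00149).

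The genes around the initiation factors were counted in 5 lists, each gene by its brightest probe set. The counts are read against the 41.8% of all probe sets that passed the F-test, which include dimmer ones. Of 19 tested genes of Atf4 and its known followers, 18 passed the F-test. In 10 over 5 mmol/l 0 were higher and 13 lower (10.0% and 11.1% of all probe sets), with a median log2 change of -0.46, and in 30 over 10 mmol/l 8 were higher and 0 lower (3.26% and 3.56% of all), with a median of 0.32. The C/EBP factor Ddit3 changed by -2.54 ± 0.28 in 10 over 5 mmol/l (adjusted p = 3.60e-06) and Trib3, a pseudokinase, by -2.06 ± 0.15 (adjusted p = 5.98e-08). Of 11 genes for eIF2 phosphatases and partners, 7 passed the F-test, with 3 higher and 2 lower in 10 over 2 mmol/l (15.6% and 16.9% of all). Ppp1r15a, the GADD34 subunit that directs phosphatase to eIF2, changed by -2.12 ± 0.13 there (adjusted p = 3.78e-09), and Dnajc3, a chaperone that inhibits eIF2 kinases, by 0.45 ± 0.08 (adjusted p = 0.000193).

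Of 23 genes of mTORC1 and the eIF4E kinases, 8 passed the F-test, a smaller share than that of all probe sets. In 10 over 5 mmol/l 2 were higher and 5 lower (10.0% and 11.1% of all probe sets). In 30 over 10 mmol/l none was called by limma (3.26% of all higher and 3.56% lower), against 1 higher and 3 lower at an unadjusted p under 0.05. Shares of all probe sets at that unadjusted threshold are not given here. Sesn2, a leucine sensor that restrains mTORC1, changed by -0.96 ± 0.16 in 10 over 5 mmol/l (adjusted p = 0.000347), and Mknk1, a kinase of eIF4E, by -0.65 ± 0.12 (adjusted p = 0.000778), while Deptor, a subunit that inhibits mTOR, changed by 0.46 ± 0.08 (adjusted p = 0.000593). Of 14 elongation and termination genes, 9 passed the F-test, with 5 higher and 1 lower in 30 over 2 mmol/l (16.3% and 20.6% of all). Eef2, the translocation factor, changed there by 0.43 ± 0.08 (adjusted p = 0.000314). Of 7 poly(A)-binding protein and helicase genes, 5 passed the F-test, with 2 higher and 2 lower in 30 over 2 mmol/l (16.3% and 20.6% of all). Pabpn1, the nuclear poly(A)-binding protein, changed there by 1.13 ± 0.13 (adjusted p = 2.36e-06).

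Probe sets of one gene did not always give one direction. Of 17 member genes with more than 1 tested probe set, 11 had a single sign over all of them in 10 over 2 mmol/l. RefSeq names a pseudogene for 24 of the 49 genes, so that their signals may include near-identical copies. Of 82 calls by contrast, 47 held without each of the 16 arrays, and 45 of these also under quantile normalization and median centring. Quantile normalization ended 11 calls, among them Eif1ax, Eif2b5, Eif3l and Eif4e in 30 over 2 mmol/l, Eif3d in 30 over 10 mmol/l and Eif2s3 and Eif1b in 10 over 2 mmol/l. Median centring ended 17, among them Eif5a, Eif4a1 and Eif4e2 in 10 over 5 mmol/l, Eif3i in 10 over 2 mmol/l, Eif1b and Eif2s3 in 30 over 2 mmol/l and Eif3b in 30 over 10 mmol/l.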

How the data were processed

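Islet RNA was hybridised to 16 Affymetrix Rat230_2 arrays, 4 at each of 4 glucose concentrations. The intensity values deposited by the authors are linear and were made with GCOS, per the submitters' processing notes. Its version and settings are not given in the sources used here. Every array has a mean of 149.999 after trimming 2% at each end, so the deposited values carry a scaling of each array. Run files of the scanner software, the other deposited files, gave fluidics run, scan day and chip lot (4 runs, 3 days, 2 lots).

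The table has 31099 probe sets, and 57 of them are controls, used for array quality. A floor of 3.4, the 10th percentile, was set before log2. The 18625 probe sets in the upper 60% by mean were tested. Symbols of the platform annotation were updated by Entrez number against RefSeq (GRCr8). A single symbol resulted for 20826 probe sets, more than one for 436 and no symbol for 9780. Where a gene has several probe sets, its brightest one by mean represents it. limma 3.58.1 in R 4.3.3 (lmFit over all 16 arrays, 12 residual degrees of freedom, eBayes with trend, two-sided, Benjamini-Hochberg over all tested probe sets) gave every adjusted p of a gene. Changes are means of log2 values, higher over lower glucose, ± SE. Levels are means ± SD with n = 4, and the number of arrays limits the precision. The code was tested on simulated data.

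The replicate numbers pair the arrays: deviations from the group means correlated at 0.136 to 0.434 in the 24 pairs that share a number and at -0.264 to 0.130 in the other 72, and each of the 16 arrays was most like one of its own number. Values with the block use the number as a fixed term (9 residual degrees of freedom). Each number also matched 1 inferred fluidics run. Array quality ratios were compared by exact two-sided permutation.

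Values in every array are printed for Eif4ebp1 to Eif4ebp3, the 4 eIF2 kinases, the 12 genes with the smallest F-test p, and up to 5 called genes each way per contrast. Each further list names up to 4 genes by smallest F-test p. The members, lists and rules were chosen with earlier results of these data known. Alternatives tried were the replicate block, scan day, quantile normalization, median centring, no or a stricter level filter, log2 of the value plus 50, no trend, only the groups compared, an adjusted p under 0.01, and leaving out arrays and numbers.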

Additional observations from a re-analysis of the deposited data

Results flagged for a closer look

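Of 196 groups of 4 arrays (49 genes at 4 concentrations), 11 held 1 array that stood apart from the other 3 by Dixon's ratio, where chance flags about 1 in 20. No array or replicate number accounts for all of them.

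At 2 mmol/l, Eif5a stood at 2020.2 in replicate 1 (others 1808.2 to 1829.4), and replicate 2 was apart for Eif2ak2 at 261.3 (others 189.8 to 199.8) and Eif5a2 at 148.5 (others 106.5 to 112.4).

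At 5 mmol/l, replicate 1 was apart for Eif4e at 1687.6 (others 1512.3 to 1526.7) and Eif3a at 1352.4 (others 1557.3 to 1570.9). Replicate 3 was apart for Eif2d at 210.2 (others 255.9 to 262.1) and Eif2s2 at 2351.1 (others 2591.4 to 2639.9), and replicate 4 for Eif3k at 816.3 (others 642.0 to 661.6).

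At 30 mmol/l, replicate 2 was apart for Eif4g1 at 338.4 (others 490.2 to 525.4) and Eif5b at 293.9 (others 367.2 to 376.6), and replicate 4 for Eif2s2 at 2358.2 (others 2480.5 to 2505.2).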

How the results depend on the processing

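Counts of called members moved by over 1.5 times under these settings, with the count of the design as planned first. In 5 over 2 mmol/l (1) the replicate block gave 13, scan day as a block 6, quantile normalization 3 and an adjusted p under 0.01 gave 0. In 10 over 5 mmol/l (17) the replicate block gave 29, scan day 26 and the stricter threshold 10. In 30 over 10 mmol/l (10) the replicate block gave 19, scan day 16, no trend 6, only the groups compared 5 and the stricter threshold 4. The stricter threshold gave 15 in 10 over 2 mmol/l (28), 16 in 30 over 2 mmol/l (26) and 22 by the F-test (36). Calls among all 18625 probe sets changed as well, but in some of these settings by less than 1.5 times. In 5 over 2 mmol/l (485) the replicate block gave 1839, scan day 1254 and quantile normalization 459. In 10 over 5 mmol/l (3935) the replicate block gave 5895 and scan day 5053. In 30 over 10 mmol/l (1271) the replicate block gave 2754, scan day 2081, no trend 1055 and only the groups compared 814. The stricter threshold gave 75 of all in 5 over 2, 2246 in 10 over 5 and 485 in 30 over 10 mmol/l. It gave 3916 in 10 over 2 mmol/l (6064), 4690 in 30 over 2 mmol/l (6869) and 5401 by the F-test (7785). The block ended 0 of 82 calls and scan day 0, quantile normalization 11 and median centring 17. A further call, of Eif4g2 in 30 over 2 mmol/l, reversed, to -0.12 under quantile normalization. Causes were not tested.

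Leaving out arrays or replicate numbers gave 24 to 37 by the F-test, 0 to 2 in 5 over 2, 10 to 17 in 10 over 5, 3 to 11 in 30 over 10, 18 to 28 in 10 over 2 and 17 to 28 in 30 over 2 mmol/l. Single arrays that moved a count by over 1.5 times were replicate 2 at 2 mmol/l (0) and replicate 2 at 30 mmol/l (2) in 5 over 2 mmol/l, and replicate 3 at 10 mmol/l (11) in 10 over 5 mmol/l. In 30 over 10 mmol/l they were replicates 2 (6) and 4 (5) at 10 mmol/l and replicates 2 (6) and 3 (5) at 30 mmol/l. Calls among all 18625 probe sets fell without each of these arrays. In the order named, they came to 103 and 450 in 5 over 2 mmol/l (485) and 3114 in 10 over 5 mmol/l (3935). In 30 over 10 mmol/l (1271) they came to 934, 949, 835 and 804. Without replicate number 3, where the F-test gave the fewest members (24), it gave 5596 of all (7785). Of the 82 calls, 35 ended without at least 1 array.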
